A study of Mus musculus with 14 samples.

Results

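The ATP-binding cassette (ABC) transporter genes of mouse liver and kidney are described here: every row of the liver and kidney gene count tables whose symbol is Abc, a subfamily letter from a to g and a number. The rule found 44 genes among the 22263 in either table. Of these, 42 were among the 19660 genes of the liver table, 39 were among the 20203 of the kidney table, and 37 were in both. Subfamily ABCA had 13 members, ABCB 9, ABCC 9, ABCD 4, ABCE 1, ABCF 3 and ABCG 5. Abca14, Abcb11, Abcc12, Abcg5 and Abcg8 were rows of the liver table alone, and Abca13 and Abca17 were rows of the kidney table alone.

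ABC proteins bind and hydrolyse ATP, and most use it to move lipids, bile acids, conjugated drugs, peptides or metal cofactors across a membrane. A full transporter carries both nucleotide-binding domains on one chain. Others carry a single such domain and work as dimers. ABCA proteins mainly move lipids and sterols, the ABCB and ABCC subfamilies hold the drug and bile exporters and several mitochondrial transporters, ABCD proteins import fatty acids into peroxisomes or handle cobalamin, and ABCG proteins export sterols and urate. ABCE and ABCF proteins lack membrane spans and act on ribosomes. In hepatocytes the canalicular members drive bile formation, and in kidney tubule cells the apical members secrete organic anions.

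All samples came from male transgenic mice, 12 weeks old, that carry the human angiotensinogen gene (hAGT) in the haplotype labelled -6A, so the controls carry the transgene too. The groups were liver on normal diet (4 libraries), liver on high salt (4), kidney on normal diet (3) and kidney on high salt (3). The salt content, the time on the diet and the promoter that drives the transgene were not given in the sources used here. The labels number the samples but do not say that each is a separate animal, so the p-values below measure the spread between these samples. For liver on high salt the table's own numbering runs from 5 to 8 and could not be tied to single sample titles, so those libraries are called 5 to 8 here.

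Totals ran from 37267771 to 51487386 estimated counts in liver and from 16046069 to 22004915 in kidney. The tissue labels held: the summed hepatocyte markers Alb, Ttr, Apob and Cps1 reached 39479 to 96012 CPM (counts scaled to 1000000 per library, with TMM factors within a tissue) in liver and 163 to 224 CPM in kidney, and the summed proximal tubule markers 1736 to 3027 CPM in kidney and at most 7.46 CPM in liver. Several libraries stood apart. Normal-diet liver libraries 1 and 2 had 2.30% and 2.06% of their counts on mitochondrial genes, against 11.3% to 29.6% in the other liver libraries, and lay apart from them on the first component. Normal-diet liver library 4 had 52.6 CPM of summed neutrophil markers, against at most 1.40 CPM in the other liver libraries. High-salt liver libraries 5 and 6 differed by 5.40 times the sampling noise (chi-square over genes per degree of freedom), against 91.4 to 242 for the other high-salt liver pairs, and were kept as 2 libraries. In kidney, the first component put library 1 of the normal diet with libraries 1 and 3 of high salt on one side and the remaining libraries on the other.

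The nucleotide-binding domains of these proteins hold a Walker A loop, which wraps the phosphates of ATP and is shared with many other ATPases and GTPases. A search of the GENCODE coding sequences of all 44 members for codons of the form Gly-any-any-Gly-any-Gly-Lys-Ser/Thr found 2 such loops in 30 members, 1 in 12 members and none in Abcg3 and Abcg8. Those with 1 loop, among them Abcb6, Abcb8, Abcb9, Abcb10, Abcd2, Abcd3, Abcg1, Abcg2 and Abcg5, are transporters that work as dimers. The first loop is shown for 4 ABCB members and for the peroxisomal Abcd3, because the comparisons below turn on telling close copies apart. Capitals mark the codons of the Gly-Lys-Ser end of the loop.
Abcb1a: ggcaacagtggctgtGGAAAAAGC
Abcb1b: ggcaacagtggctgtGGAAAAAGC
Abcb4: ggcaacagcggctgtGGAAAAAGC
Abcb11: ggatccagtggggcaGGGAAGAGC
Abcd3: ggtccaaacggctgtGGAAAGAGC

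Abcb1a and Abcb1b, which both encode P-glycoproteins, were identical over this loop. Their coding sequences agreed at 87.7% of aligned positions (gaps counted), shared a run of 338 bases, and 9.84% of the 100-base windows of one occurred in the other. A share of their reads can therefore be divided between them only by estimation, and their summed level is given for the diet groups of each tissue. Abcb4, the phosphatidylcholine floppase of the canaliculus, matched Abcb1a at 75.1% of positions with 0.295% of 100-base windows shared. Abca8a and Abca8b shared no 100-base window, but they shared a run of 97 bases and 2.18% of 50-base windows. For 50-base windows the share was 20.3% for Abcb1a and Abcb1b and 3.36% for Abcb1a and Abcb4.

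Promoter sequence was taken from the RefSeq table on build GRCm38.p6, which held 34 of the 44 members. The 250 bases before the start of Abcb11, the bile salt export pump, are shown because that gene had the highest level per length in normal-diet liver. They lie at chr2:69342617-69342866 on the minus strand, and capitals mark a match to the IR-1 element, inverted copies of AGGTCA set 1 base apart with free bases allowed at 2 positions, of the kind that the bile acid receptor FXR (Nr1h4) binds. The match begins 63 bases before the start site.
Abcb11 upstream: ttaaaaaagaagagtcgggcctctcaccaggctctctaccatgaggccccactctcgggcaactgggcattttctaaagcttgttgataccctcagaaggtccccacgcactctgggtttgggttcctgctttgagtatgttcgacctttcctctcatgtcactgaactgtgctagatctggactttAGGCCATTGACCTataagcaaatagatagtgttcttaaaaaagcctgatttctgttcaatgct

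On either strand that motif occurred in 11 of the 32851 mouse promoter windows of the table (0.0335%), and Abcb11 was the only member among them. A free position of the motif falls where the Abcb11 stretch has C in place of the T of AGGTCA. The share is therefore no measure of how unusual the Abcb11 match is. Abcg5 and Abcg8 encode both chains of the sterol exporter and lie on opposite strands. From the RefSeq start sites used here they are transcribed away from each other. The GENCODE model of Abcg8 begins at chr17:84676302, inside Abcg5, which ends at 84683011, and the models share 82 exon bases on opposite strands. The window of 109 bases between 1 RefSeq start site of each gene is shown because these sites lie at its ends. It lies at chr17:84683012-84683120, plus strand, and capitals mark 2 matches, on the minus strand, to the motif AGATAA, which transcription factors of the zinc finger type named after such sites bind.
Abcg5 to Abcg8: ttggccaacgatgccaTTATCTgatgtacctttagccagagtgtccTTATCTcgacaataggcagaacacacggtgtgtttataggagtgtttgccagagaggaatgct

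The 34 members had 41 promoter windows. AGATAA occurred in 9.99% of all promoter windows and in 4 of these 41, those of Abca14, Abcf2, Abcg5 and Abcg8. The windows of Abcg5 and Abcg8 both hold the stretch shown above, so the same matches are counted for both genes. Other motifs were searched on both strands, none overlapping these matches. CACGTG was in 6.02% of all windows and in 4 of the 41, and ATTGG in 33.8% and in 12 of the 41. GGGCGG was in 32.7% of all windows and in 20 of the 41, which belong to 17 members. A match is a description of these letters and not a binding site.

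From the lowest member to the highest, levels spanned more than 3 orders of magnitude within a tissue. Ranked by CPM per kilobase of exon, which allows genes to be compared, the highest in normal-diet liver were Abcb11 (66.95), Abcd3 (62.3), Abcc2 (31.9), Abcg5 (26.6) and Abcg8 (23.4). Abcd3 imports branched and long-chain acyl groups into peroxisomes, and Abcc2 exports bilirubin glucuronides into bile. Abcb11 had 327, 328, 431 and 291 CPM in the 4 normal-diet libraries and 377, 341, 347 and 346 CPM on high salt. The 2 leading genes did not differ beyond their spread between libraries, and neither did Abcg5 and Abcg8. In normal-diet kidney the order began with Abcd3 (49.9 CPM per kilobase), Abcg2 (40.1), Abca3 (17.3) and Abcc2 (15.5). Abcg2 (chr6:58584523-58695676, plus strand), the urate and xenobiotic exporter of the proximal tubule brush border, had 352, 318 and 310 CPM there, and Abcd3 had 320, 315 and 351 CPM. Abca3 and Abcc2 overlapped between libraries in this order.

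**Figure D1:**
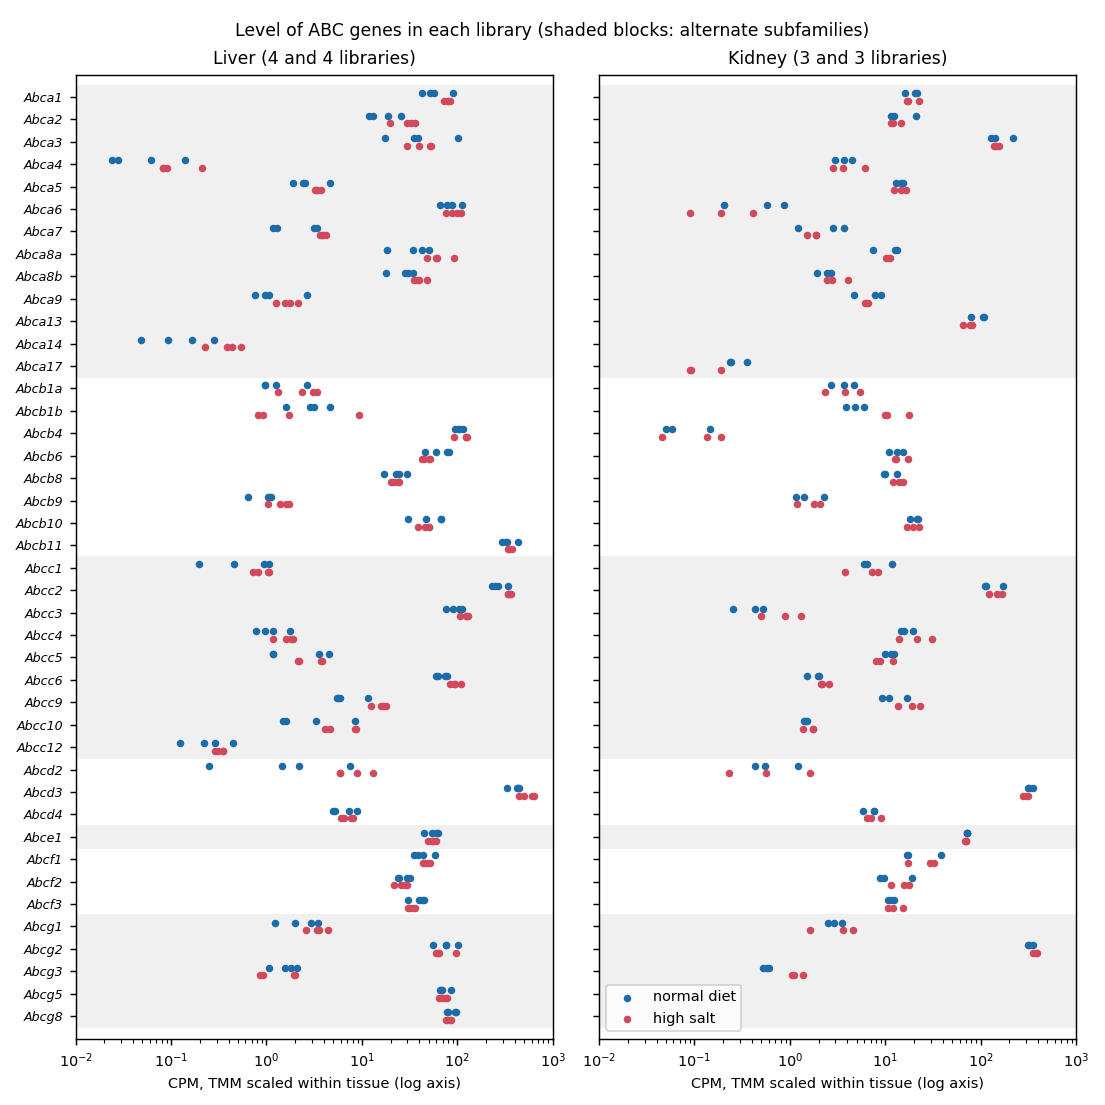
CPM (TMM scaled within a tissue, log axis) of 42 of the 44 members in each library, with liver at left and kidney at right, blue points for normal diet and red points for high salt. Abcd3, Abcb11 and Abcc2 lie highest in liver, Abcg2 and Abcd3 in kidney, and the points of Abce1 nearly coincide in kidney.

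The members differed in how steady they were among libraries. Abce1, a ribosome recycling factor, had 71.6, 71.2 and 72.3 CPM in normal-diet kidney and 69.5, 69.1 and 70.8 CPM on high salt, a coefficient of variation of 0.778% and 1.28% within the groups. Abcd2, a peroxisomal fatty acid importer, was the least steady in normal-diet liver: it had 2.21, 0.250, 7.57 and 1.46 CPM in libraries 1 to 4, a coefficient of variation of 113%. Abca3, a lamellar body phospholipid transporter, had 17.4, 38.5, 101 and 35.6 CPM in the same libraries.

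By subfamily, ABCB held the largest share of the summed ABC level in normal-diet liver (28.3%, 622 ± 70.7 CPM, SD, n = 4), followed by ABCC (20.6%) and ABCD (19.7%). In normal-diet kidney ABCD (23.7%), ABCA (23.4%) and ABCG (23.0%) held the most, with 341 ± 19.1, 336 ± 35.3 and 330 ± 22.5 CPM (SD, n = 3), and their ranges between libraries overlapped. ABCG was carried almost entirely by Abcg2 in kidney. These sums weigh long and abundant genes more and come from tables scaled separately.

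**Figure D2:**
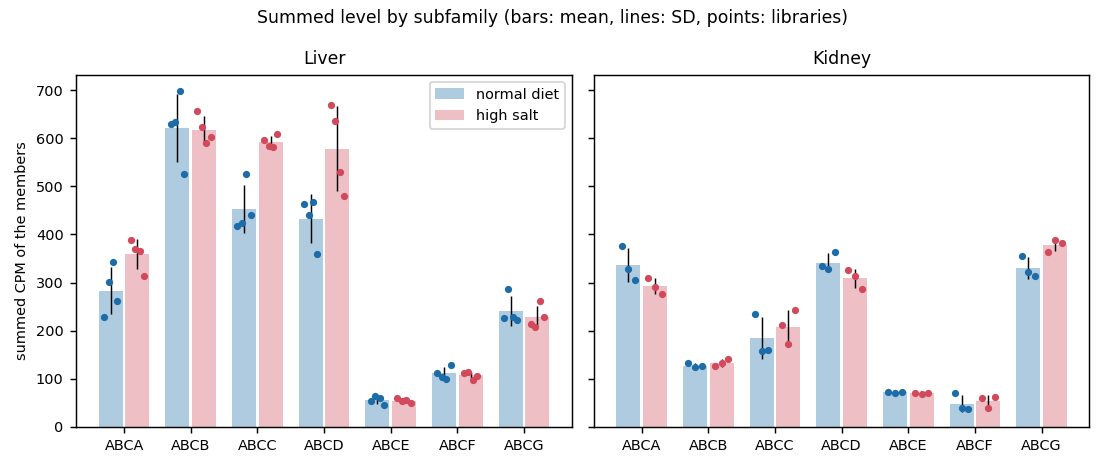
Summed CPM of the members of each subfamily in liver (left) and kidney (right), for normal diet (blue) and high salt (red); bars are means, lines SD, points libraries. In liver the high-salt points of ABCC (583 to 608 CPM) and ABCD (480 to 669 CPM) lie above all normal-diet points (417 to 525 and 360 to 468 CPM). Most of that ABCD sum was Abcd3 (mean 410 of 433 CPM on normal diet, 549 of 579 CPM on high salt).

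The first comparison set liver against kidney on normal diet, 4 libraries against 3, over the genes of both tables. Abcb4, Abcc3, Abca6 and Abcc6 were higher in liver by the largest folds, and Abca4, Abcc4 and Abcc1 were higher in kidney by the largest folds. With edgeR's quasi-likelihood test and Benjamini-Hochberg adjustment over all genes, 27 of 37 members passed an adjusted p of 0.05, against 58.5% of the 15688 genes tested. Of these 27, 19 were higher in liver and 8 in kidney, against 30.0% and 28.5% of all genes in each direction, and 18 and 8 differed at least 2-fold, against 51.3% of all genes (25.8% higher in liver, 25.5% higher in kidney). The log2 difference was above 0 for 24 of 37, against 51.7%. The median log2 difference, liver minus kidney, was 0.85 over the members and 0.07 over all genes. A bulk level cannot tell fewer cells of a type from less RNA per cell. Values in this comparison are CPM scaled over both tissues together.

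Abcb4 had 104 to 127 CPM (115 ± 9.32, SD, n = 4) in liver and 0.0381, 0.0417 and 0.106 CPM in kidney. The kidney values rest on 5 estimated reads in 3 libraries, against 15795 in 4 liver libraries. The ratio of summed counts was 1810 with a 95% interval of 775 to 5574 (exact Clopper-Pearson, counting error only). Abcc3, which exports glucuronides and bile salts across the basolateral side of hepatocytes, had 85.9 to 122 CPM in liver and 0.191 to 0.375 CPM in kidney, a log2 difference of 8.42 ± 0.37 (SE, adjusted p = 2.42e-07). Abca6, an ABCA member of little known function, had 74.8 to 125 CPM in liver and 0.152 to 0.625 CPM in kidney (log2 difference 7.83 ± 0.48). The liver and kidney libraries did not overlap for any of these 3 genes.

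Abcc6 (chr7:45967555-46030302, minus strand), whose activity in liver releases ATP and so supplies pyrophosphate to the blood, had 76.1 ± 10.4 CPM (SD, n = 4) in liver and 1.52, 1.08 and 1.45 CPM in kidney, a 53.9-fold difference. Abca8b was 16.9-fold higher in liver (20.1 to 37.8 against 1.45 to 1.98 CPM), and the porphyrin transporter Abcb6 was 7.24-fold higher (51.5 to 91.1 against 7.88 to 11.7 CPM). Of the exon bases of Abcb6, 55.2% also belong to the gene model Gm29253 on the same strand, so its counts may have been divided between them. Abcf3, a translation factor of the ABCF subfamily, was 4.96-fold higher (33.9 to 49.8 against 7.84 to 9.30 CPM). Abcd2 passed in liver with a log2 difference of 2.51 ± 0.95 (adjusted p = 0.0432), but its libraries overlapped, and the call was lost in 7 of 16 alternatives, for example without normal-diet liver library 3 (log2 difference 1.36, adjusted p = 0.156).

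Abcd3 itself was 1.81-fold higher in liver (adjusted p = 0.0223), and Abcc2 was 2.98-fold higher, with 255 to 376 CPM against 81.1 to 129 CPM. Abca1, which lipidates nascent HDL, was 4.55-fold higher in liver (67.4 ± 24.2 CPM, SD, n = 4, against 11.8 to 15.6 CPM). The mitochondrial Abcb10 and Abcb8 were 3.75-fold and 3.12-fold higher. By subfamily, the called members were 7 of 10 ABCA (4 in liver, 3 in kidney), 5 of 8 ABCB (4 and 1), 7 of 8 ABCC (4 and 3), 3 of 4 ABCD and 3 of 3 ABCF (all in liver), 2 of 3 ABCG (1 and 1) and not Abce1. Abce1 had 61.6 ± 8.33 CPM (SD, n = 4) in liver and 51.0 to 54.2 CPM in kidney, and its libraries overlapped (adjusted p = 0.515).

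On the kidney side, Abca4, known as the retinoid transporter of photoreceptors, had 3.35, 2.67 and 2.19 CPM in kidney and 0.0267 to 0.158 CPM in liver. The liver values rest on 10 estimated reads against 214 in kidney, a ratio of 37.4 with a 95% interval of 19.9 to 79.02 from the summed counts. Abcc4, an apical exporter of cyclic nucleotides and organic anions in the proximal tubule, had 14.7, 10.4 and 11.4 CPM in kidney and 0.855 to 1.93 CPM in liver, a 9.77-fold difference (adjusted p = 2.46e-05). Abcc1, an exporter of glutathione conjugates, had 8.88, 4.25 and 4.70 CPM in kidney and 0.214 to 1.17 CPM in liver, an 8.33-fold difference (adjusted p = 0.000857). Abcg2 had 267, 228 and 226 CPM in kidney and 62.4 to 112 CPM in liver, a 2.92-fold difference. Abcc5 was 2.96-fold higher in kidney. The call for Abcc5 was lost without normal-diet kidney library 1 (adjusted p = 0.0574). Abca3 had 166, 100 and 93.3 CPM in kidney and 19.1 to 112 CPM in liver, and its libraries overlapped (adjusted p = 0.0624).

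**Figure D3:**
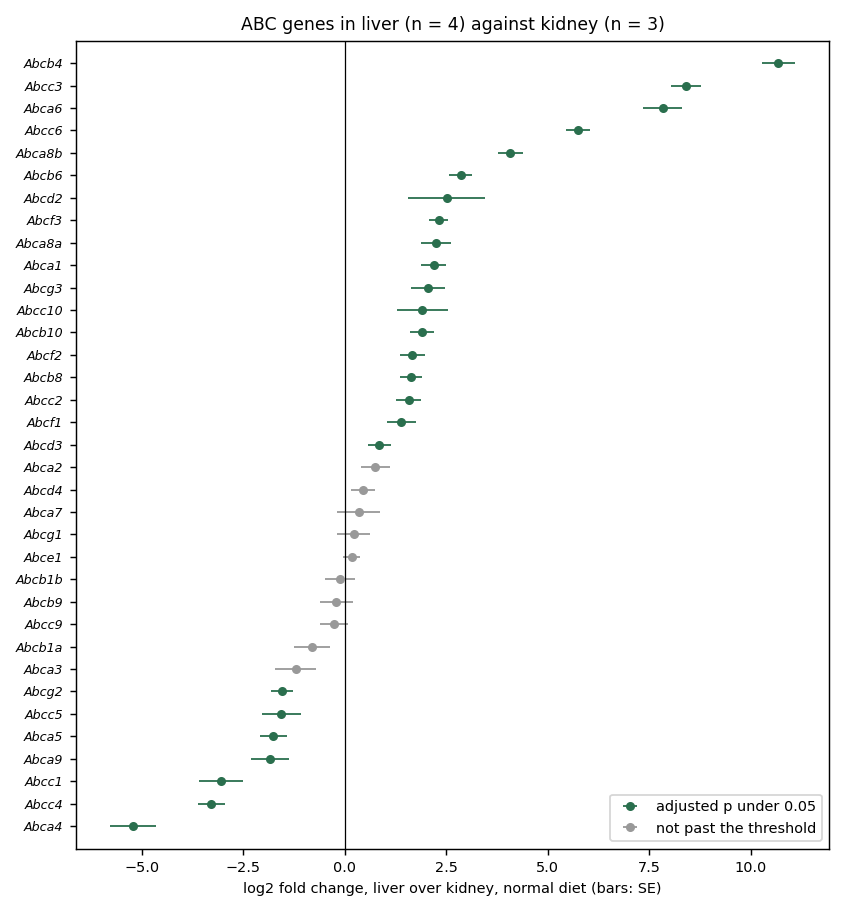
log2 fold change of liver over kidney on normal diet for 35 of the 37 members in both tables, sorted, with bars for the SE from edgeR; green points passed an adjusted p of 0.05 and grey points did not. Abcb4, Abcc3, Abca6 and Abcc6 lie beyond 5 on the liver side, and Abca4 lies beyond -5 on the kidney side.

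Members that sit side by side in the genome were not all highest in the same tissue. On chromosome 11 of mm10, Abca8b (chr11:109932190-109995845), Abca8a, Abca9, Abca6 and Abca5 (chr11:110269369-110337716) follow one another on the minus strand with gaps of 4.77 to 29.8 kb and no other protein-coding gene between them. Abca8b, Abca8a and Abca6 were higher in liver. Abca9 and Abca5, in the same array, were higher in kidney: Abca9 had 3.58, 6.42 and 5.69 CPM there and 0.828 to 2.97 CPM in liver (3.62-fold), and Abca5 had 9.76, 10.9 and 10.6 CPM there and 2.14 to 5.18 CPM in liver (3.39-fold). Abca9 lies 8.62 kb from Abca6, whose difference of 7.83 on the log2 scale runs the other way. On chromosome 5, Abcb1a, Abcb1b and Abcb4 also follow one another (gaps of 49.6 and 27.4 kb). Abcb4 had 104 to 127 CPM in the 4 normal-diet liver libraries on the scaling of this comparison, while Abcb1a had 1.07 to 2.97 CPM and Abcb1b 1.79 to 5.20 CPM in liver, and neither passed between tissues (adjusted p = 0.141 and 0.799). The summed level of Abcb1a and Abcb1b was not tested between tissues.

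The split between tissues depended on the scaling: without a scaling factor 15 members were higher in liver and 11 in kidney, with the median of all genes at -0.46 on the log2 scale, and with upper quartile scaling 16 and 9 (median -0.22). The shares of all genes called in each direction in these fits are not given here. Whether the members' split followed that of all genes is therefore not shown. All 27 called members kept their direction in every alternative that tested them, and 7 of the 10 others changed sign in at least 1. The alternatives reuse the libraries by which the 27 were called, so this is no separate support.

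The next comparison asked what high salt did in liver, 4 libraries against 4. No member passed an adjusted p of 0.05 among the 41 tested, against 1.00% of the 15130 genes tested (edgeR). DESeq2 called 1 member, Abcc9. Abca4 was too low to be tested. The members' log2 changes, high salt over normal diet, were above 0 for 30 of 41, against 48.0% of all genes, with a median of 0.24 over the members and -0.02 over all genes. At an unadjusted p under 0.05, 9 members differed against 21.2% of all genes, 8 of them higher on high salt (9.83% of all genes) and 1 lower (11.3%). The libraries of the groups did not overlap for 5 members, all higher on high salt (Abca7, Abca8b, Abcc6, Abcc9 and Abcd3), against 12.3% of all genes (6.61% higher, 5.68% lower).

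Abcc9 (chr6:142587862-142702315, minus strand), the SUR2 subunit that gates ATP-sensitive potassium channels in vascular muscle, had the smallest p. It had 5.88, 5.55, 11.6 and 5.57 CPM on normal diet and 17.7, 16.6, 12.6 and 15.7 CPM on high salt. Every high-salt library was above every normal-diet library, and normal-diet library 3 was the nearest. The log2 change was 1.13 ± 0.27 (SE, edgeR unadjusted p = 0.00169, adjusted p = 0.0754), and without normal-diet library 3 it was 1.47 (adjusted p = 0.0103). Kcnj8, the pore subunit that pairs with it, had 3.07 ± 0.210 and 3.05 ± 0.254 CPM (SD, n = 4 each, edgeR unadjusted p = 0.997). Markers of stellate cells and fibroblasts moved the same way as Abcc9: the 5 genes (Col1a1, Col3a1, Dcn, Lrat and Pdgfrb) had a mean sum of 90.9 CPM (SD 24.2) in the 4 normal-diet libraries and lay between 130 and 143 CPM in the 4 high-salt libraries, without overlap, and all 5 had log2 changes above 0. Their part in the result was not tested.

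All 9 ABCC members were above 0 in liver, although without normal-diet libraries 1 and 2 Abcc1 and Abcc5 were below 0 (log2 change -0.15 and -0.46). Abcc6 had 63.1, 59.7, 73.5 and 78.3 CPM on normal diet and 83.2, 92.3, 94.7 and 109 CPM on high salt, with no overlap (log2 change 0.47 ± 0.16, edgeR adjusted p = 0.159). Abcc2 had 232, 251, 339 and 267 CPM on normal diet and 363, 339, 354 and 338 CPM on high salt, where normal-diet library 3 reached the high-salt range. Abcc3 had 76.5 to 111 CPM and 108 to 130 CPM, with a small overlap. The 4 hepatocyte markers summed to 39479 to 61545 CPM on normal diet and 77857 to 96012 CPM on high salt without overlap, and most of that sum was Alb (31702 to 50501 CPM and 67204 to 85152 CPM, log2 change 0.76 ± 0.30, edgeR adjusted p = 0.190). The log2 changes of Ttr, Apob and Cps1 were 0.28, 0.21 and -0.18, with overlap between the diets for each. The part of these markers in the values above was not tested.

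Among the ABCA members, 9 of 10 were above 0. Abca8b had 28.0, 30.2, 34.1 and 17.9 CPM on normal diet and 38.1, 35.5, 48.7 and 39.6 CPM on high salt (log2 change 0.56 ± 0.20, edgeR adjusted p = 0.168). Its neighbour Abca8a had 18.3 to 50.1 CPM and 48.4 to 91.5 CPM, a log2 change of 0.84 ± 0.30 (edgeR adjusted p = 0.166) with overlap at 1 library of each group. Normal-diet library 4 was the lowest for both. Abca2, a lipid transporter of late endosomes, had 13.0, 11.7, 18.9 and 26.0 CPM against 33.0, 35.7, 19.7 and 29.6 CPM (log2 change 0.76 ± 0.29, edgeR adjusted p = 0.182). Abca7, which handles phospholipids in phagocytic cells, was low in normal-diet libraries 1 and 2 (1.17 and 1.30 CPM) and had 3.18 and 3.36 CPM in libraries 3 and 4, against 3.68 to 4.24 CPM on high salt. Abca14 was barely present: its highest library had 0.540 CPM, and its log2 change of 1.46 ± 0.51 (edgeR adjusted p = 0.165) rests on 12.9 estimated reads per library.

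Abcd3 (chr3:121758774-121815302, minus strand) had 446, 426, 438 and 333 CPM on normal diet and 639, 606, 505 and 446 CPM on high salt (log2 change 0.43 ± 0.18, edgeR adjusted p = 0.219). The highest normal-diet library and the lowest high-salt library both stood at 446 CPM after rounding, and the 2 highest values were those of the alike libraries 5 and 6. Abcb6 was the 1 member lower at an unadjusted p under 0.05, with 78.6, 82.8, 59.2 and 45.8 CPM on normal diet and 50.9, 51.8, 42.6 and 44.8 CPM on high salt (log2 change -0.48 ± 0.19, edgeR adjusted p = 0.197). Its high values were in normal-diet libraries 1 and 2, the ones with the low mitochondrial share.

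The canalicular bile salt and sterol exporters had values that overlapped between diets. Abcb11 had a log2 change of 0.04 ± 0.17, Abcg5 of -0.01 ± 0.14 and Abcg8 of -0.11 ± 0.14 (SE), and none kept its sign in every alternative: without scaling factors Abcg5 and Abcg8 were at 0.25 and 0.16, and Abcb11 ranged from -0.05 to 0.33. Abcg5 had 69.1, 86.6, 65.7 and 67.7 CPM on normal diet and 68.4, 64.2, 77.9 and 75.2 CPM on high salt. Abcg8 had 78.4, 96.3, 80.8 and 94.7 CPM and then 76.1, 78.2, 83.0 and 85.7 CPM. The ratio of Abcg8 to Abcg5 CPM, not corrected for length, stayed between 1.07 and 1.40 in the 8 liver libraries.

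Which libraries entered decided some of these counts. Without normal-diet liver library 3, Abcc9 and Abcd2 passed. The count over all genes also moved when a library was left out (range given below). The share of all genes in this fit is not given here, so the 2 calls are not a result about the members. Without normal-diet libraries 1 and 2 together the members' median was 0.10 (all genes -0.01), with 4 of 41 members at an unadjusted p under 0.05, against 16.1% of all genes in that fit. Without scaling factors 40 of 41 members were above 0, against 69.4% of all genes, whose median was 0.25.

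**Figure D4:**
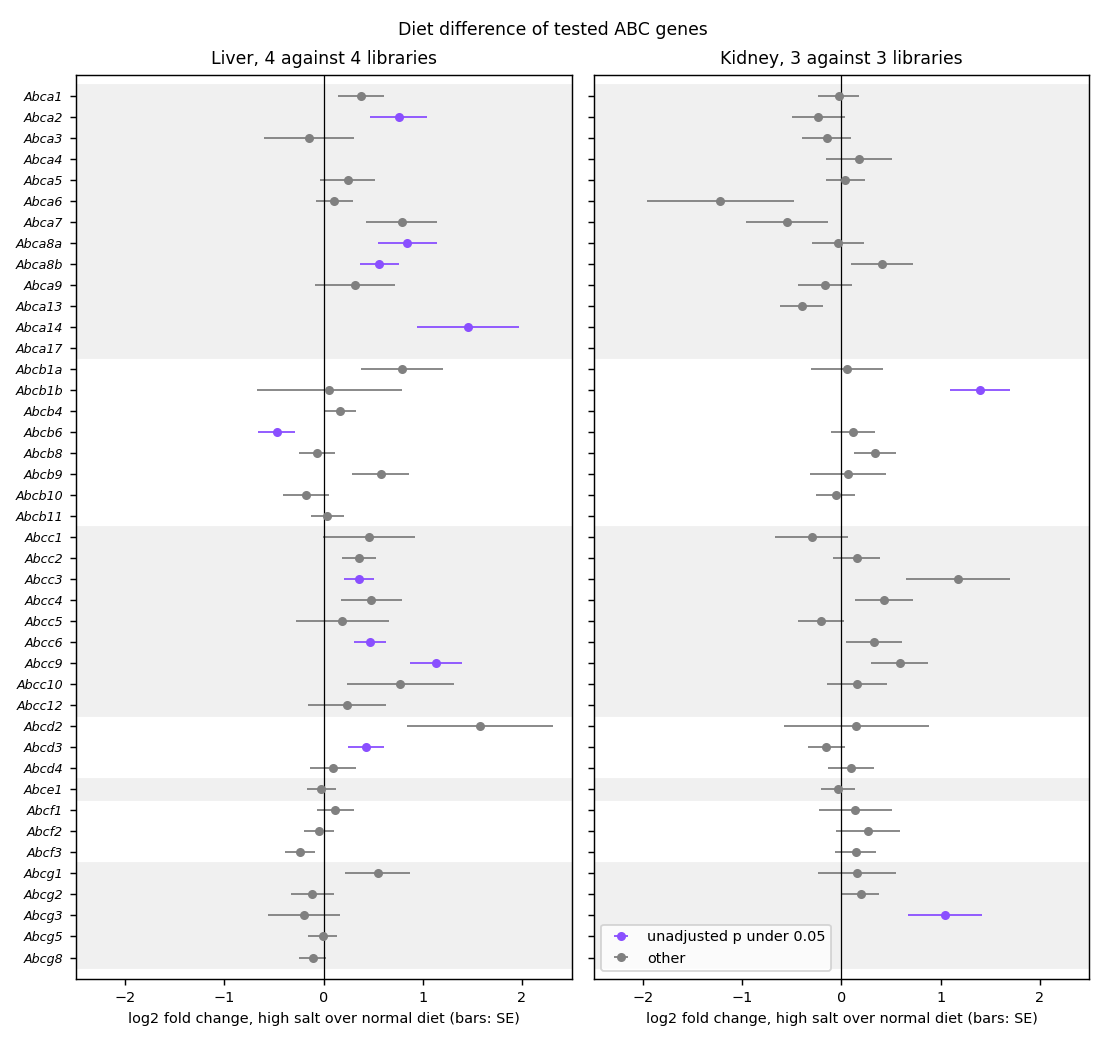
log2 fold change of high salt over normal diet for 39 of the 41 members tested in liver (left) and 35 of the 37 tested in kidney (right), with bars for the SE from edgeR; purple points had an unadjusted p under 0.05 and no point passed the adjusted threshold. All 9 ABCC points in liver lie above 0.

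In kidney, 3 libraries against 3, no member passed among the 37 tested, and 0% of the 15847 genes tested did (edgeR; an unadjusted p under 0.05 was found for 2 members, both higher on high salt, and for 2.01% of all genes, 1.27% higher and 0.732% lower). DESeq2 called 13 genes and no member. Abca17 and Abcb4 were too low to be tested. The members' log2 changes were above 0 for 23 of 37, against 46.3% of all genes, with a median of 0.09 and -0.02 over all genes; without scaling factors it was 31 of 37, against 77.0% of all genes, whose median was 0.20. The groups did not overlap for 6 members, against 6.83% of all genes: Abcb1b, Abcc6, Abcg2 and Abcg3 were higher on high salt (3.67% of all genes), and Abcd3 and Abce1 were lower (3.17%).

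Abcb1b (chr5:8798147-8866315, plus strand) had the smallest p, with 3.88, 5.94 and 4.78 CPM on normal diet and 10.5, 17.9 and 9.97 CPM on high salt. All high-salt libraries were above all normal-diet libraries, and high-salt library 2 was the highest. The log2 change was 1.39 ± 0.30 (SE, edgeR unadjusted p = 0.00167, adjusted p = 1.00). Abcb1a, its close copy, had 2.72, 4.71 and 3.72 CPM and then 3.79, 2.31 and 5.42 CPM, with overlap. Their sum, which does not depend on how shared reads were divided, was 6.60, 10.7 and 8.51 CPM on normal diet and 14.3, 20.2 and 15.4 CPM on high salt, again without overlap. In liver Abcb1b had 0.816 to 1.73 CPM in high-salt libraries 5, 6 and 8 and 9.33 CPM in library 7. The liver sum of Abcb1a and Abcb1b was 3.86 to 4.31 CPM in high-salt libraries 5, 6 and 8 and 10.6 CPM in library 7. On normal diet that sum was 4.11 to 5.59 CPM.

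Abcg3 (chr5:104935057-104982718, minus strand), a rodent relative of Abcg2 in whose coding sequence no Walker A loop was found, had 0.604, 0.524 and 0.580 CPM on normal diet and 1.38, 1.06 and 1.09 CPM on high salt. The groups did not overlap (log2 change 1.05 ± 0.37, edgeR unadjusted p = 0.0222, adjusted p = 1.00), and the values rest on 17.5 estimated reads per library. Abcg2 had 352, 318 and 310 CPM on normal diet and 357, 385 and 377 CPM on high salt, a log2 change of 0.19 ± 0.19. Abce1 and Abcd3 had log2 changes of -0.04 ± 0.17 and -0.15 ± 0.19 (SE), which without scaling factors were above 0 (0.20 and 0.07).

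Abcc9 had 16.8, 9.31 and 11.0 CPM on normal diet and 19.2, 13.6 and 22.9 CPM on high salt (log2 change 0.59 ± 0.29, SE, edgeR unadjusted p = 0.0738). Abcc4 had 19.4, 14.6 and 15.6 CPM and then 21.5, 14.1 and 31.1 CPM (log2 change 0.43 ± 0.29, edgeR unadjusted p = 0.177). The mitochondrial Abcb8 had 9.66 to 13.3 CPM and 12.1 to 15.3 CPM (log2 change 0.34 ± 0.21, edgeR unadjusted p = 0.148). Within each diet these 3 genes were lowest in the libraries that lie on one side of the first component (normal-diet libraries 2 and 3 and high-salt library 2). Abca13, a very long ABCA protein, was lower on high salt in the mean (98.0 ± 16.6 against 74.1 ± 8.46 CPM, SD, n = 3), with overlap (log2 change -0.40 ± 0.21, SE, edgeR unadjusted p = 0.0983). Abcc3 and Abca6 had log2 changes of 1.18 ± 0.52 and -1.22 ± 0.74 at under 2 CPM, from 13.3 and 7.50 estimated reads per library (edgeR unadjusted p = 0.0543 and 0.137). All these kidney members had an adjusted p of 1.00.

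**Figure D5:**
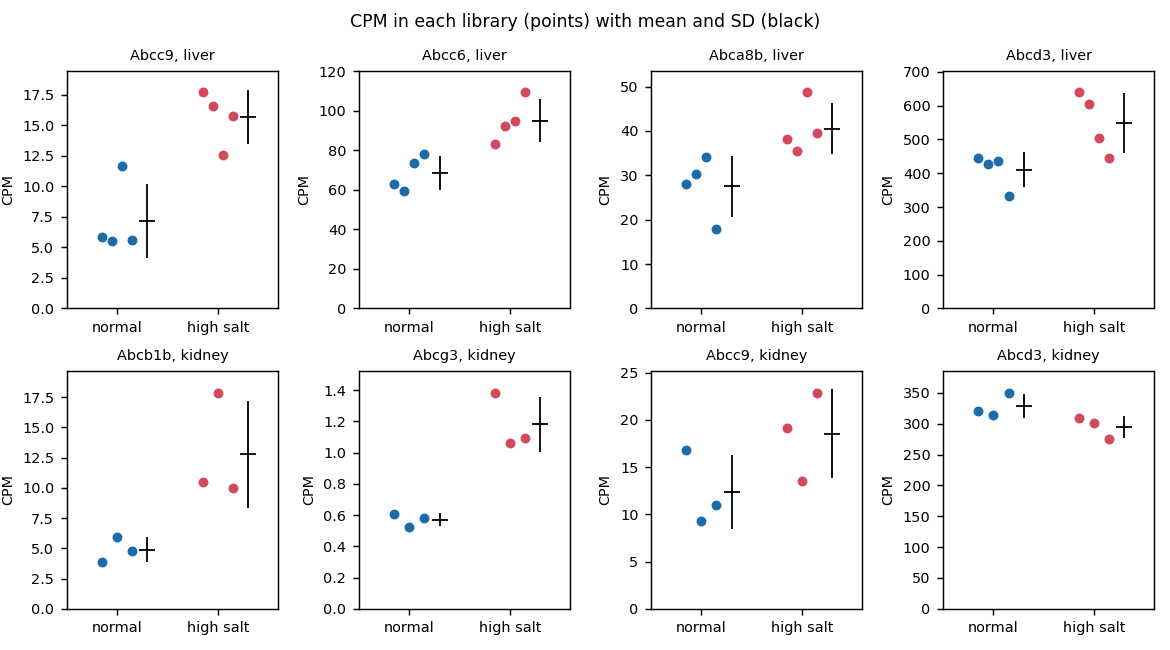
CPM in each library for some of the members with the smallest p for diet, and for Abcd3 (upper row liver, lower row kidney). The members drawn are a selection and not a ranking by p. Points are blue for normal diet and red for high salt, with black marks for mean and SD. Abcc9 in liver and Abcb1b and Abcg3 in kidney show no overlap, and Abcd3 lies higher on high salt in liver and lower in kidney on this TMM scale (in kidney the difference is above 0 without scaling factors).

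The first component of the kidney libraries cut across diet. In all, 10 members, among them Abcb8, Abcb9, Abcc1, Abcc2, Abcc4, Abcc9, Abcf1, Abcf2 and Abcf3, were higher in all 3 libraries of one side (library 1 of the normal diet, libraries 1 and 3 of high salt) than in any of the others, and Abca13 was lower. Together these were 29.7% of the members tested, against 42.8% of all genes. Abcf1, for example, had 38.4, 32.4 and 29.8 CPM in those 3 libraries and 17.5, 16.8 and 17.4 CPM in the others. Markers of 3 tubule segments were higher in the same libraries: proximal tubule (2518 to 3027 against 1736 to 2033 CPM), thick limb and distal tubule (2197 to 2820 against 1705 to 1981 CPM) and collecting duct (65.6 to 93.2 against 53.7 to 58.97 CPM). Podocyte markers were lower there (92.99 to 128 against 139 to 154 CPM). Erythroid markers were lower there too, by a wider margin (241 to 535 against 990 to 1303 CPM). The summed markers of stellate cells and fibroblasts and of neutrophils were also lower there without overlap. Those listed for cholangiocytes were higher without overlap. The part of these markers was not tested. With that side as a term in the fit, no member passed and the members' median change was 0.01, and without normal-diet library 1, 8 of 37 members had an unadjusted p under 0.05 in place of 2, against 16.3% of all genes in that fit in place of 2.01%.

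The last comparison asked whether the diet change differed between tissues, in 1 fit of 14 libraries. No member passed among 37, and 0% of the 16633 genes tested did (edgeR; DESeq2 called 142 genes and no member). At an unadjusted p under 0.05 there were 3 members, against 10.1% of all genes (5.85% above 0, 4.26% below). Abca2 (liver change minus kidney change 1.02 ± 0.41 on the log2 scale, adjusted p = 0.442) and Abca7 (1.37 ± 0.56, adjusted p = 0.447) were above 0, and Abcg3 was below (-1.22 ± 0.54, adjusted p = 0.473), with SE from edgeR. For all 10 ABCA members the liver change exceeded the kidney change, against 51.6% of all genes, but Abca3 (0.03) was below 0 in 12 alternatives and Abca8b (0.15) without normal-diet liver library 4. For Abcd3 the liver libraries were all higher and, with TMM scaling, the kidney libraries all lower on high salt. Abcd3 was called in neither tissue, its kidney change was 0.07 without scaling factors, and the difference of 0.58 ± 0.30 between the tissues had an adjusted p of 0.532.

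Genes that work with these transporters were listed with earlier results of these data known, so their counts support nothing on their own. Of the 11 tested genes of sterol and bile handling, 1 passed in liver on high salt, against 1.00% of all genes. That gene was Pltp, the phospholipid transfer protein, with 7.65, 6.94, 5.70 and 7.59 CPM on normal diet and 53.8, 57.8, 19.3 and 79.9 CPM on high salt, a log2 rise of 2.93 ± 0.37 (edgeR adjusted p = 0.0130). Slc10a1, the bile salt uptake carrier opposite Abcb11, had 448 ± 115 and 542 ± 71.1 CPM (SD, n = 4 each) and was not called. None of 20 tested regulators passed (edgeR), and 4 had an unadjusted p under 0.05, against 21.2% of all genes. The smallest p among the regulators was that of Pparg, a lipid-sensing receptor, with a log2 change of 0.94 ± 0.23 (edgeR adjusted p = 0.0827). Nr1h4, which encodes FXR, had 106 and 104 CPM. None of 5 peroxisome and cobalamin genes, 5 channel and scaffold genes, 3 heme and iron genes or 4 ribosome genes passed; the smallest unadjusted p of each was that of Pex19 (0.0560), Pdzk1 (0.0271), Slc25a37 (0.0485) and Eif2s1 (0.0397). In kidney none of these lists had a gene past the threshold, and Tap2, an ABC peptide transporter that the symbol rule leaves out, had the smallest unadjusted p (0.0606).

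Between tissues, all 11 sterol and bile genes passed, 8 higher in liver and 3 in kidney. The 3 were Tmem30a and the basolateral bile salt exporter chains Slc51a and Slc51b. The other ABC genes Tap1 and Tap2 were higher in liver and Cftr in kidney, with 5.95 ± 3.03 CPM on normal diet (SD, n = 3). Of 21 regulators 14 were higher in liver and 2 in kidney, Vdr and Mylip. Between tissues 58.5% of all genes tested passed, 30.0% higher in liver and 28.5% higher in kidney.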

How the data were processed

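RNA was measured in 8 liver and 6 kidney libraries by mRNA sequencing. The authors deposited 1 table of estimated counts per gene for each tissue, many of them not whole, made by expectation-maximisation in Partek against an annotation model, per the names of the tables. Per the submitters' processing notes, STAR 2.5.3a, Partek 7.0, DESeq2 and mm10 were used, with no role stated. The authors also deposited tables of normalized signal values per gene, used only as an alternative. The annotation release and the strand setting were not given in the sources used here, so overlapping genes on opposite strands could not be told apart.

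Estimated counts were rounded. Genes were filtered with filterByExpr, scaled with TMM factors and tested with edgeR 4.0.16 (quasi-likelihood, R 4.3.3) over all genes of a table, with Benjamini-Hochberg adjustment and a threshold of 0.05. The standard error is the log2 change divided by the square root of F. The tissue comparison and the interaction used genes of both tables, scaled together. Groups came from the sample labels. DESeq2 1.42.0, limma 3.58.1, other scalings and filters and left-out libraries were alternatives. On simulated data holding 200 genes with a log2 change of 2, the liver fit (14954 genes) recovered 158, the kidney fit (15478) 155, the tissue fit (15498) 137 and the interaction fit (16439) 84. These fits also called 10, 7, 7 and 4 unchanged genes. The simulated libraries lacked the differences between libraries described above. The highest log2 change of a member on high salt was 1.57 in liver and 1.39 in kidney, and recovery of changes below 2 was not simulated.

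The members and the lists of partners, regulators and markers were chosen with earlier results of these data known. Named were the 8 members with the smallest p for diet in each tissue, the 8 highest in each tissue, 3 for the interaction and the 5 highest per length, and any listed gene past the threshold; other members are named as further examples, after their values were seen. Same-numbered kidney libraries of the diet groups had correlated deviations of 0.53, 0.51 and -0.15, so the numbers were not taken as pairs. Coordinates are those of the tables on mm10, with ends counted as the last base. Exon lengths and coding sequences came from GENCODE M21 and promoters from RefSeq. The counts cover all members, but 2 of them are not reported by name or drawn here.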

Additional observations from a re-analysis of the deposited data

Results flagged for a closer look

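Among 84 liver groups of 4 libraries (each tested or listed member on each diet), 7 had 1 library far from the other members of its group; chance gives about 1 in 20 groups, or 4.2 here. Of the 7, 3 were set apart by high-salt library 7. In it Abcb1b had 9.33 CPM against 0.816 to 1.73 CPM in the others, Abcg2 had 96.5 CPM against 60.4 to 64.0 CPM, and Abcb4, which lies next to Abcb1b, was lowest with 92.3 CPM against at least 124 CPM. In high-salt library 8, Abca4 had 0.210 CPM against 0.0816 to 0.0902 CPM, a few reads in each.

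In normal-diet liver library 3, Abcc9 had 11.6 CPM against 5.55 to 5.88 CPM and Abca9 had 2.68 CPM against 0.753 to 1.05 CPM. In normal-diet liver library 2, Abcg5 had 86.6 CPM against 65.7 to 69.1 CPM. Kidney groups of 3 libraries were not examined in this way.

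The libraries of Abcd3 lay on opposite sides in the tissues: the log2 difference on high salt was 0.43 in liver, where all high-salt libraries were above all normal-diet libraries, and -0.15 in kidney, where all were below (0.07 without scaling factors). Neither passed (edgeR adjusted p = 0.219 and 1.00). The test of the difference gave an edgeR adjusted p of 0.532.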

How the results depend on the processing

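The count of members called for diet in liver was 0 in 17 of 21 alternatives. It was 2 without scaling factors (an alternative added after the data were seen), 1 with DESeq2 and 1 with all 14 libraries in 1 fit, and 0 to 2 when each library was left out in turn. Over all genes the liver count was 152, 665 without scaling factors, 1084 with DESeq2, and 12 to 765 when a library was left out. In kidney and for the interaction no member was called in any of the 18 and 22 alternatives, and leaving out each library gave 0 to 0. Between tissues the count of 27 ranged from 20 (at least 10 counts in every library, which left 30 members) to 29 (all 14 libraries), and from 24 to 27 when a library was left out. In the main fit 58.5% of all genes passed, and the shares of all genes in these alternatives are not given here. None of the 9 members in liver and 2 in kidney at an unadjusted p under 0.05 for diet, the 27 called between tissues and the 3 of the interaction changed sign in any alternative. These members were picked by their p in the main fit, and the alternatives reuse the same libraries, so their kept sign is no separate support. Of all members tested, 20 of 41 in liver, 21 of 37 in kidney, 7 of 37 between tissues and 9 of 37 in the interaction changed sign in at least 1, and 10, 8, 4 and 1 of them did so without scaling factors. Leaving out library 4 of the normal-diet liver with high-salt libraries 5 and 6 summed, and a term for the first component in kidney, were also added after the data were seen.

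Same-numbered libraries share only a number. With a replicate block the kidney comparison called 0 members, and the tissue comparison on libraries numbered 1 to 3 called 24. The share of all genes called in that tissue fit is not given here. For liver diet and the interaction, no paired analysis was possible because the high-salt liver columns carry no number of a sample title. Low members limit the depth: Abca4 in liver, and Abca17 and Abcb4 in kidney, had a mean of 4.38, 3.83 and 2.00 estimated reads per library.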

Other observations

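The kidney table of normalized values was not restricted to the same genes as the kidney count table, and it listed 5 ABC genes that the count table did not. Abcb11 was listed at 6.85 in normal-diet kidney library 2, at 0.845 in high-salt library 1 and at 0 in the others. Abcg8 was listed at 4.57 in normal-diet library 2, 3.38 in high-salt library 1 and 0.874 in high-salt library 3, and at 0 elsewhere. Abcg5 ranged from 0 to 2.82 and Abca14 from 0 to 3.43. Abcg4 was listed at 5.92 in normal-diet library 1 and 1.69 in high-salt library 1 and at 0 elsewhere. No high-salt library exceeded the highest normal-diet library for any of the 5 genes. These values are on the deposited normalized scale and were not set beside CPM.

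Among the 41 members tested in liver, normal-diet library 3 held the highest normal-diet value for 16 (39.0%, against 25.0% of all genes), and library 1 for 3 (7.32%, against 22.1%).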
